A study of Mus musculus with 8 samples.

Results

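The Mediator complex was examined in splenic regulatory T cells (Tregs) of SRC-3KO and control mice. Its genes were taken from both deposited tables as every symbol made of Med and a number, with any trailing letters, together with Ccnc, Cdk8 and Cdk19. This gave 34 of the 55487 genes in each table, of which 33 code for proteins. The other, Med9os, is an antisense gene that lies next to Med9 and is no Mediator subunit. It held 0 and 0 counts in the SRC-3KO libraries, against 1 and 0 counts in the controls, without a tumor, and was listed at 0 in all 4 tumor libraries.

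Mediator is a large assembly that carries signals from DNA-bound transcription factors to RNA polymerase II. Its head and middle modules contact the polymerase, its tail binds many activators, and the Med14 subunit runs through all of them as a backbone. A separate kinase module, made of Med12, Med13, cyclin C and either Cdk8 or Cdk19, docks reversibly and controls whether the polymerase can bind. SRC-3, the product of Ncoa3, helps nuclear receptors to activate their target genes, and the same receptors contact Mediator through its subunit Med1.

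The study set the transcriptomes of SRC-3-deficient and control Tregs against each other, and its 8 libraries form 4 groups of 2, all from C57BL/6 mice and made with the SMART-Seq v4 kit, which amplifies full-length cDNA. In the order SRC-3KO with a tumor, control with a tumor, SRC-3KO without a tumor and control without a tumor, the sample names read SRC_3KO_GFP P1 and P2, FOXP3cre_GFP P1 and P2, 2 SRC-3KO names that carry the word Tam1, and 1 wild type and 1 Foxp3-Cre name. The cells were sorted by GFP, although the source label of the wild type control does not mention it, and no label says whether the SRC-3KO mice carry a Cre or lost SRC-3 in Tregs only. No label explains Tam1, so whatever it stands for cannot be told apart from genotype without a tumor, and the age of the mice, the tumor type and the deleted exons of Ncoa3 are likewise missing from the labels. The labels do not say that replicates came from separate animals, so p-values measure only the spread between these samples, which may be technical.

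Without a tumor the deposited values were read counts, with totals of 27452922 and 31075452 in SRC-3KO and 25251597 and 24159217 in control libraries. With a tumor they were FPKM, fragments scaled to transcript length and library size, and the depth behind them is unknown. The states were tested apart because the tables differ in unit. One library stood apart before any gene was compared. Control replicate 1 without a tumor, the wild type sample, correlated with the other 3 libraries of its table at Pearson r of 0.693 to 0.704 across genes on the log2 scale, while those 3 correlated with each other at 0.934 to 0.972. The tumor libraries correlated at 0.918 to 0.979. Without a tumor Ncoa3 itself was at 39.6 and 26.7 CPM (counts scaled to the library total adjusted by its TMM factor) in the SRC-3KO libraries against 132 and 54.1 CPM in the controls, a log2 fold change of -1.48 (standard error, SE, 0.83, edgeR adjusted p = 0.910). In tumor-bearing mice it was at 47.5 and 27.7 FPKM in SRC-3KO against 37.7 and 45.4 FPKM in controls, which overlap (-0.18, SE 0.30, limma adjusted p = 0.770). Reads from the undeleted part of the gene may be counted, so these values do not check the labels. All 7 Treg markers were above 1 CPM or 1 FPKM in every library. With a tumor all 7 had fold changes above 0 (median 0.52), 3 of them at an unadjusted p under 0.05 and 0 at an adjusted one. Of the 7, 4 had fold changes above 0 without a tumor (median 0.69). Foxp3, which defines Tregs, was at 21.1 and 10.2 CPM in SRC-3KO cells against 231 and 20.5 CPM in controls there. The groups overlapped for Foxp3, and control replicate 1 alone was high (-3.01, SE 1.30, edgeR adjusted p = 0.910).

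Markers of other cells differed between the libraries of tumor-bearing mice, and the neutrophil and monocyte sums were far highest in control replicate 2. The sum over 7 B and plasma cell genes was 179 and 205 FPKM in SRC-3KO against 405 and 2238 FPKM in controls. Most of it was Cd74, which other cells make too, at 166 and 195 FPKM in SRC-3KO against 311 and 2130 FPKM in controls. Jchain was at 0 and 0.581 FPKM in SRC-3KO against 43.5 and 61.7 FPKM in controls. The sum over 7 monocyte and macrophage genes was 11.7 and 9.17 FPKM in SRC-3KO against 48.1 and 1389 FPKM in controls. Csf1r, Fcgr1 and Itgam, which define those cells, were all at 0 in control replicate 1. Apoe, at 39.8 FPKM, made up most of the sum in that library. Lyz2 was at 0.404 FPKM there, against 1108 FPKM in control replicate 2. The sum over 6 neutrophil genes was 1.56 and 0 FPKM in SRC-3KO against 3.46 and 3895 FPKM in controls, and the sum over 6 CD8 T and NK cell genes was 58.4 and 37.8 FPKM against 159 and 111 FPKM. Most of the last sum was Nkg7, at 50.4 and 28.1 FPKM in SRC-3KO against 151 and 92.3 FPKM in controls, while Cd8b1 was at 7.69 and 7.74 FPKM against 4.67 and 6.16 FPKM. Mpo and Elane were at 0 in all 4 tumor libraries. The part that these cells play in the Mediator values was not tested.

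In tumor-bearing mice, both SRC-3KO libraries held more transcript than either control of the large kinase, backbone and tail subunits Med12, Med13, Med14 and Med15 and less of several small head and middle subunits, among them Med21, Med6 and Med8, but no Mediator gene passed the test across all genes. Of 34 members, 31 reached 1 FPKM in 2 or more libraries and entered the limma fit on log2(FPKM + 1). None of the 31 had an adjusted p under 0.05, against 0.109% of the 12859 genes tested. At an unadjusted p under 0.05 there were 7 members, 6 higher and 1 lower in SRC-3KO, against 16.5% of all genes. In 11 members both SRC-3KO libraries lay above both controls, against 27.5% of all genes, and in 9 both lay below, against 24.9% of all genes. These shares are 35.5% and 29.0% of the members tested, not far from the background. The median log2 fold change of the members was 0.04 and that of all genes was -0.02. Fold changes on the log2(FPKM + 1) scale understate the change of genes with few reads, and in a bulk library fewer cells of a type and less RNA per cell cannot be told apart.

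**Figure D1:**
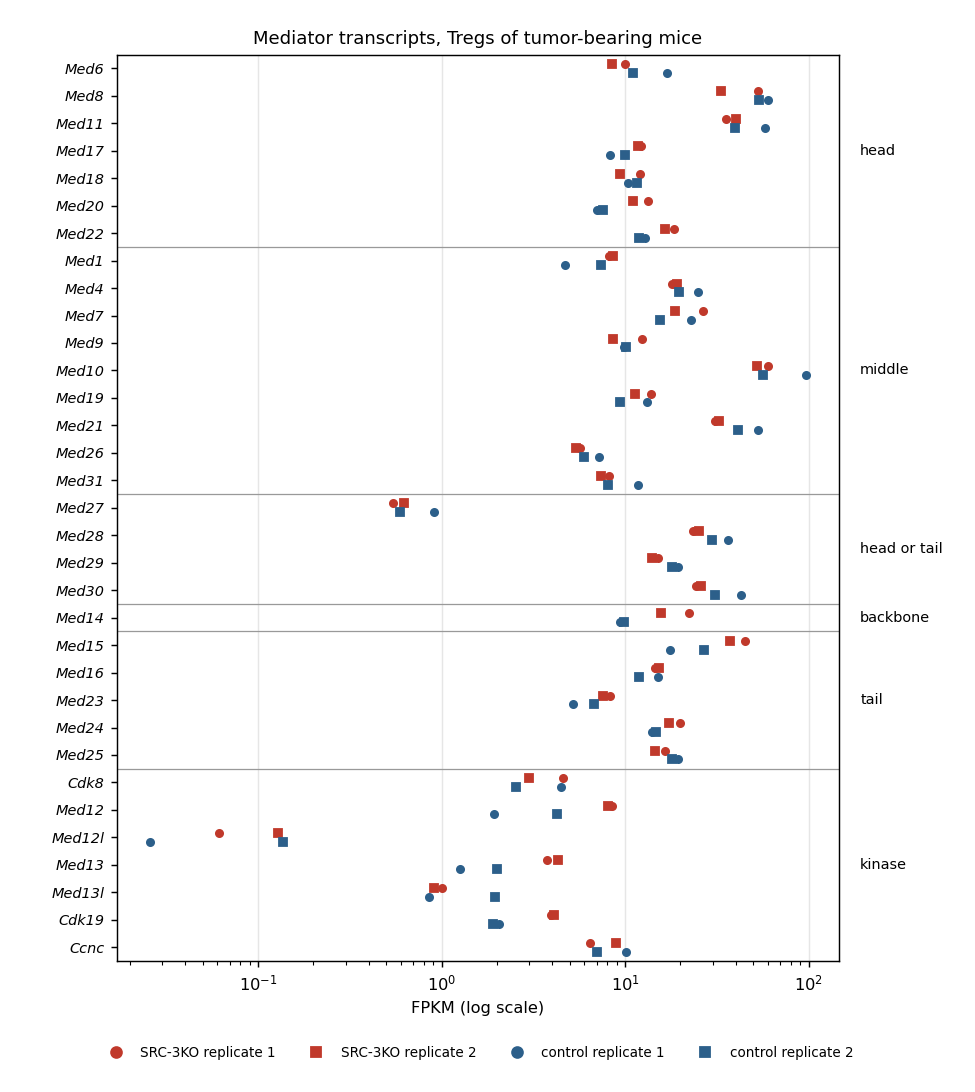
FPKM (log axis) of the 33 protein-coding Mediator genes in the 4 tumor libraries, grouped by module; red marks SRC-3KO, blue marks control, and the symbol shape gives the replicate. Med12, Med13, Cdk19 and Med14 sit to the right in both SRC-3KO libraries, Med21 and Med30 to the left.

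Of the kinase module, 3 of its 6 tested members were above both controls in each SRC-3KO tumor library and 0 were below, against the 27.5% and 24.9% of all genes given above; counts in modules this small are a description. Med12 (ENSMUSG00000079487, mm10 chromosome X, 101274030 to 101297465, plus strand), which turns on the kinase through cyclin C, stood at 8.45 and 8.05 FPKM in SRC-3KO against 1.92 and 4.24 FPKM in controls. The SRC-3KO libraries lay close together and above both controls, which were themselves more than 2 FPKM apart. The log2 fold change was 1.24 (SE 0.34, limma adjusted p = 0.209), the highest of the 31 members. Med12 shares 9.72% of its exon bases with the overlapping gene Gm21986 on the same strand, so reads there can be split between them.

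Med13 (ENSMUSG00000034297, chromosome 11, 86267033 to 86357602, minus strand), which joins the kinase module to the core complex, stood at 3.77 and 4.30 FPKM in SRC-3KO against 1.25 and 2.01 FPKM in controls. The groups did not overlap, and the log2 fold change was 0.95 (SE 0.26, limma adjusted p = 0.214). Cdk19 (ENSMUSG00000038481, chromosome 10, 40339564 to 40483818, plus strand), the paralog of the kinase Cdk8, stood at 3.97 and 4.08 FPKM in SRC-3KO against 2.04 and 1.91 FPKM in controls, with both groups tight and apart. Its log2 fold change was 0.75 (SE 0.23, limma adjusted p = 0.231). Cdk8 (ENSMUSG00000029635, chromosome 5, 146231230 to 146302874, plus strand) was at 4.56 and 2.98 FPKM in SRC-3KO against 4.45 and 2.56 FPKM in controls. The 2 replicates of each group differed more than the groups did (0.10, SE 0.33, limma adjusted p = 0.894).

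Cyclin C, encoded by Ccnc and the partner of both kinases, stood at 6.45 and 8.96 FPKM in SRC-3KO against 10.1 and 7.06 FPKM in controls, and the groups overlapped (-0.14, SE 0.28, limma adjusted p = 0.816). Med13l, the paralog of Med13, stood at 1.01 and 0.909 FPKM in SRC-3KO against 0.855 and 1.95 FPKM in controls, where a single control was high (-0.26, SE 0.31, limma adjusted p = 0.686). Med12l, the paralog of Med12, was near the bottom of the scale in every library, at 0.0612 and 0.128 FPKM in SRC-3KO against 0.0257 and 0.136 FPKM in controls, and was not tested.

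Paralogs compete for the same place in a complex, so their ratio within a library was also taken, which depends little on the scaling of that library. On log2(FPKM + 1), Med13 over Med13l was 1.25 and 1.47 in SRC-3KO against 0.28 and 0.03 in controls. Cdk8 over Cdk19 was 0.16 and -0.35 in SRC-3KO against 0.84 and 0.29 in controls. In both pairs the groups were apart, for Cdk8 over Cdk19 by less than the spread within either group. A two-sided exact permutation test gave p = 0.333 for each, which is the smallest that 2 libraries against 2 can give, so neither could pass. Med12 over Med12l was 3.15 and 3.005 in SRC-3KO against 1.51 and 2.21 in controls on the same scale, but with Med12l under the filter these values follow Med12 and the pseudocount and are not read as a ratio.

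Med14 (ENSMUSG00000064127, chromosome X, 12675369 to 12762073, minus strand), the backbone that holds head, middle and tail together, stood at 22.4 and 15.6 FPKM in SRC-3KO against 9.43 and 9.86 FPKM in controls. The lower SRC-3KO library was well above both controls, and the log2 fold change was 0.89 (SE 0.24, limma adjusted p = 0.209). In the tail, where activators dock, 3 of 5 subunits lay above both controls and 1 below. Med15 (ENSMUSG00000012114, chromosome 16, 17651208 to 17732891, minus strand), a target of the sterol regulator SREBP, stood at 44.9 and 37.1 FPKM in SRC-3KO against 17.5 and 26.8 FPKM in controls, with no overlap (0.88, SE 0.26, limma adjusted p = 0.231).

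The other tail subunits moved less. Med23, which receives signals of the MAP kinase pathway, stood at 8.27 and 7.56 FPKM in SRC-3KO against 5.18 and 6.76 FPKM in controls. Med24 stood at 20.0 and 17.3 FPKM in SRC-3KO against 14.0 and 14.7 FPKM in controls. Both were apart by a narrow margin, with log2 fold changes of 0.36 each. Med25, through which retinoic acid receptors act, ran the other way, at 16.5 and 14.6 FPKM in SRC-3KO against 19.3 and 18.1 FPKM in controls (-0.26, SE 0.19, limma adjusted p = 0.518). Med16 overlapped.

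The head module, which contacts the polymerase, was split, with 3 of 7 subunits above both controls and 2 below. Med20 (ENSMUSG00000092558, chromosome 17, 47611582 to 47624418, plus strand), part of its movable jaw, stood at 13.3 and 11.0 FPKM in SRC-3KO against 7.03 and 7.54 FPKM in controls. Both SRC-3KO values were above both controls by more than the spread within either group (0.66, SE 0.21, limma adjusted p = 0.239). A processed pseudogene on the opposite strand, Kpna2-ps, overlaps 21.4% of the exon bases of Med20. The protein-coding gene Gm20517 overlaps a smaller share of them on the same strand, so reads there can be split between Med20 and Gm20517. Med22 stood at 18.6 and 16.5 FPKM in SRC-3KO against 12.9 and 11.9 FPKM in controls, again apart (0.47, SE 0.19, limma adjusted p = 0.311). Med17, the central scaffold of the head, stood at 12.2 and 11.8 FPKM in SRC-3KO against 8.30 and 9.93 FPKM in controls (0.36, SE 0.21, limma adjusted p = 0.417). Med6 and Med8 were lower in both SRC-3KO libraries, with log2 fold changes of -0.53 (SE 0.27) and -0.43 (SE 0.27), while Med11 and Med18 overlapped.

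In the middle module 1 of 9 subunits was above both controls and 3 were below. Med1, the docking site of nuclear receptors, stood at 8.18 and 8.53 FPKM in SRC-3KO against 4.69 and 7.41 FPKM in controls. It was above both controls, but the controls were farther apart than the nearer control was from SRC-3KO (0.44, SE 0.27, limma adjusted p = 0.449). Med21 (ENSMUSG00000030291, chromosome 6, 146642547 to 146650732, plus strand), which forms the hinge of the middle module with Med7, stood at 30.9 and 32.3 FPKM in SRC-3KO against 53.2 and 41.1 FPKM in controls. This was the lowest log2 fold change of the 31 members, at -0.55 (SE 0.20, limma adjusted p = 0.285). Med4 and Med26, which passes the polymerase to elongation factors, were below by less, at -0.24 and -0.21, and Med7, Med9, Med10, Med19 and Med31 overlapped. Of the exon bases of Med10, 92.8% lie under the antisense RNA Gm26819, and no source used here gives the strand setting of the counting, so the reads of the pair cannot be told apart.

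Med28, Med29 and Med30, found in metazoan Mediator at the border of head and tail, were all below both controls. Med30 stood at 24.2 and 25.8 FPKM in SRC-3KO against 42.8 and 31.0 FPKM in controls (-0.52, SE 0.22, limma adjusted p = 0.323). Med28 stood at 23.6 and 25.4 FPKM in SRC-3KO against 36.2 and 29.6 FPKM in controls (-0.41, SE 0.20, limma adjusted p = 0.361). In both genes the SRC-3KO libraries were near each other and the controls spread widely above them. Med27 of the same group was under the filter, at 0.542 and 0.620 FPKM in SRC-3KO against 0.914 and 0.591 FPKM in controls. In the counts table it was no rare transcript, at 19.6 to 54.0 CPM per kb, so the tables disagree on its level.

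The promoters of the members at both ends of this range are shown because they are the stretches in which the initiation machinery that Mediator serves is assembled. RefSeq promoters of GRCm38.p6 were matched for 29 of the 34 members, and the 250 bases before the RefSeq start were searched on both strands for 5 motifs. That start differs from the GENCODE gene bounds given above, so the stretches shown run partly into those bounds. Capitals mark the GC box (GGGCGG or its reverse complement), the CCAAT box and the ETS site (CCGGAAG), each in either orientation. Med12 is shown from chrX:101273841-101274090 on the plus strand, Med14 from chrX:12761974-12762223 and Med13 from chr11:86357597-86357846 on the minus strand, and Med21 from chr6:146642329-146642578 on the plus strand.
Med12: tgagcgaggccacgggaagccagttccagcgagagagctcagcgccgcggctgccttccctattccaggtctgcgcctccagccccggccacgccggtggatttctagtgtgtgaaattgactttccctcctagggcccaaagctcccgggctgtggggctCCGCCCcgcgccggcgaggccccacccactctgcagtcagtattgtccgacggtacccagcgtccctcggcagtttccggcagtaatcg
Med13: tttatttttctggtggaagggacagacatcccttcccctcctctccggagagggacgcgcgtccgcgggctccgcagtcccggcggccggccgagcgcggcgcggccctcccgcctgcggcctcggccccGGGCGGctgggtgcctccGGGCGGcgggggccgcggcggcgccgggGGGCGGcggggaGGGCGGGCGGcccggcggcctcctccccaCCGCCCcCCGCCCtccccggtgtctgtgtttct
Med14: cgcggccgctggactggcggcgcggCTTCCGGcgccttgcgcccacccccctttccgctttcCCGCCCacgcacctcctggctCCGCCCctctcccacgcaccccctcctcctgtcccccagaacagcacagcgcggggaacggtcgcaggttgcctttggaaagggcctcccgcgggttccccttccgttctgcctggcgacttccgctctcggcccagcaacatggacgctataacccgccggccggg
Med21: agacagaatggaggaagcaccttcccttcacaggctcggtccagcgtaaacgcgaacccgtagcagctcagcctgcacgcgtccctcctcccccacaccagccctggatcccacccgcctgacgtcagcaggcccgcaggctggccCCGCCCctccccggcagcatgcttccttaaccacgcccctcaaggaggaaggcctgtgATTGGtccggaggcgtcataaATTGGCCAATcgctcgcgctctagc
Med13, whose transcript was higher in SRC-3KO with a tumor, has 7 GC boxes, some overlapping, and no CCAAT. Med21, whose transcript was lower, has 3 CCAAT boxes and a GC box. Med12, which was also higher, has a single GC box, as Med21 does, and Med14, higher too, has GC boxes and an ETS site. Neither Med12 nor Med14 has CCAAT. The motifs were not tested against the direction of change. Across the 29 promoters the GC box was present in 65.5%, against 32.7% of all 32851 promoters of the same length, and CCAAT in 37.9% against 33.9%. The ETS site was in 13.8% against 6.91%, the TATA box (TATAAA) in 10.3% against 12.4%, and the forkhead site (TGTTTAC), the letters Foxp3 and its relatives read, in 0% against 3.17%. The 29 promoters are a single stretch per gene and include that of Med9os, which has a GC box. The 32851 were not reduced to a single stretch per gene, so the shares are of unlike units. A match is a run of letters and not a measured binding site.

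Summed by module, the make-up of the Mediator transcript pool differed between the groups with a tumor. The tail made up 18.7% and 18.5% of the summed FPKM of all members in SRC-3KO, against 11.5% and 15.5% in controls. The kinase module made up 5.08% and 5.92% in SRC-3KO, against 3.35% and 3.93% in controls, and Med14 made up 4.02% and 3.14% against 1.53% and 1.95%. In these 3 shares both SRC-3KO libraries lay above both controls. The middle module made up 33.0% and 33.0% in SRC-3KO against 39.5% and 34.3% in controls, and Med27 to Med30 made up 11.4% and 13.2% against 16.1% and 15.7%. The head was at 27.8% and 26.2% in SRC-3KO against 28.1% and 28.8% in controls, so that it differed least in relative terms. Med15 was the most abundant tail subunit in FPKM in both SRC-3KO libraries and in control replicate 2. In control replicate 1 it was Med25, at 19.3 FPKM against 17.5 FPKM for Med15. These shares were not tested.

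**Figure D2:**
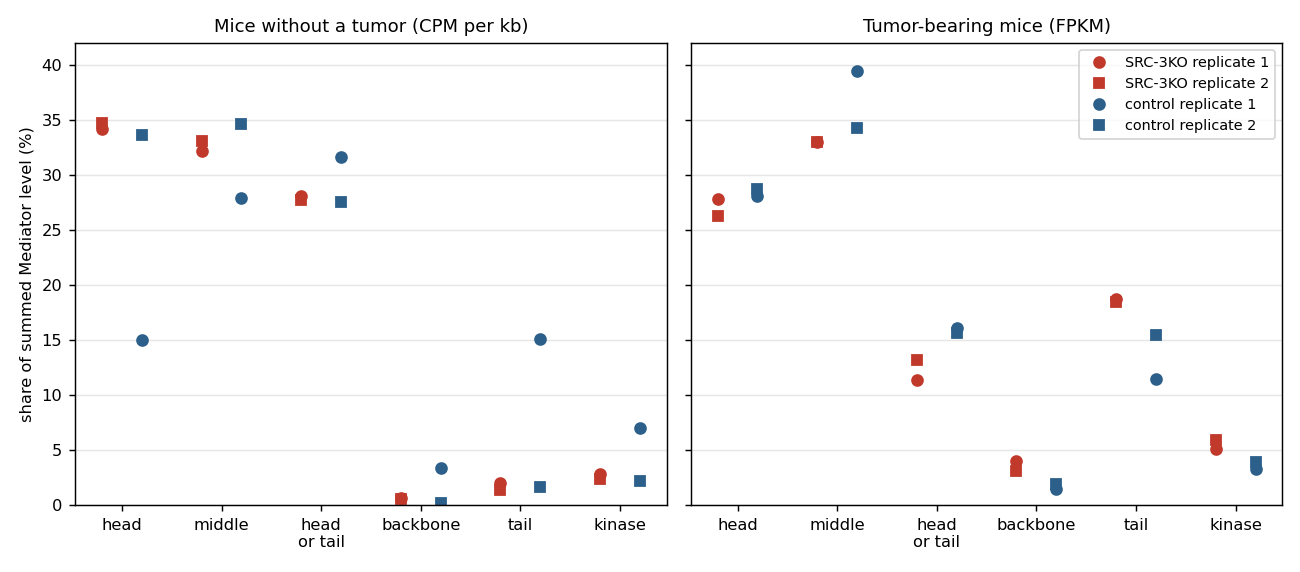
Share of the summed level of all Mediator genes held by each module (%), left in mice without a tumor (CPM per kb), right in tumor-bearing mice (FPKM); red is SRC-3KO, blue is control, and the symbol shape gives the replicate. With a tumor the backbone, tail and kinase shares are higher in both SRC-3KO libraries; without a tumor the head and tail shares of control replicate 1, at 15.0% and 15.1%, stand away from the other 3 libraries.

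Without a tumor, both SRC-3KO libraries held more transcript than either control of Ccnc and of several head and middle subunits, among them Med6, Med20 and Med21, and less of Cdk8, Med13, Med22, Med24 and Med9, again with none passing the test across all genes. Of 34 members, 33 passed edgeR's filter on counts, all but Med9os. None had an adjusted p under 0.05 in edgeR's quasi-likelihood test, against 0% of the 14860 genes tested, and DESeq2 and limma-voom also called 0 members. At an unadjusted p under 0.05 there was 1 member, Cdk8, against 3.18% of all genes. In 12 members both SRC-3KO libraries lay above both controls, against 23.8% of all genes, and in 5 both lay below, against 16.9% of all genes. The median log2 fold change was 0.48 and that of all genes -0.02.

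Across all genes the controls correlated with each other at 0.693, below any of their correlations with the SRC-3KO libraries, which were 0.702 to 0.945. The median of the members was 0.12 when control replicate 1 was left out and 0.01 when control replicate 2 was. All genes tested had medians of 0.08 and -0.16 in the same fits. Fold changes were above 0 in 23 of 33 members without control replicate 1 and in 17 without control replicate 2. Each of these fits leaves a lone control, assumed to vary like the other group, so its calls are not read. The other cell types differed between these libraries too. The sum over the CD8 T and NK cell genes was 555 and 408 CPM in SRC-3KO cells against 1336 and 118 CPM in controls, that over the B and plasma cell genes was 498 and 268 CPM against 918 and 292 CPM, and that over the monocyte genes was 76.7 and 126 CPM against 66.0 and 62.2 CPM. Most of the B and plasma cell sum was Cd74, an invariant chain that other cells make too, at 361 and 194 CPM in SRC-3KO cells against 907 and 169 CPM in controls. The defining gene Jchain was at 72.1 and 50.1 CPM in SRC-3KO cells against 0.0397 and 109 CPM in controls, and Cd79b at 38.6 and 17.5 CPM against 1.79 and 6.68 CPM. The neutrophil sum was 0.0363 and 0.0352 CPM in SRC-3KO cells against 0.0397 and 307 CPM in controls. Mpo, Elane, Fcgr1 and Itgam were at 0 in all 4 libraries. Their part in the Mediator values was not tested.

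**Figure D3:**
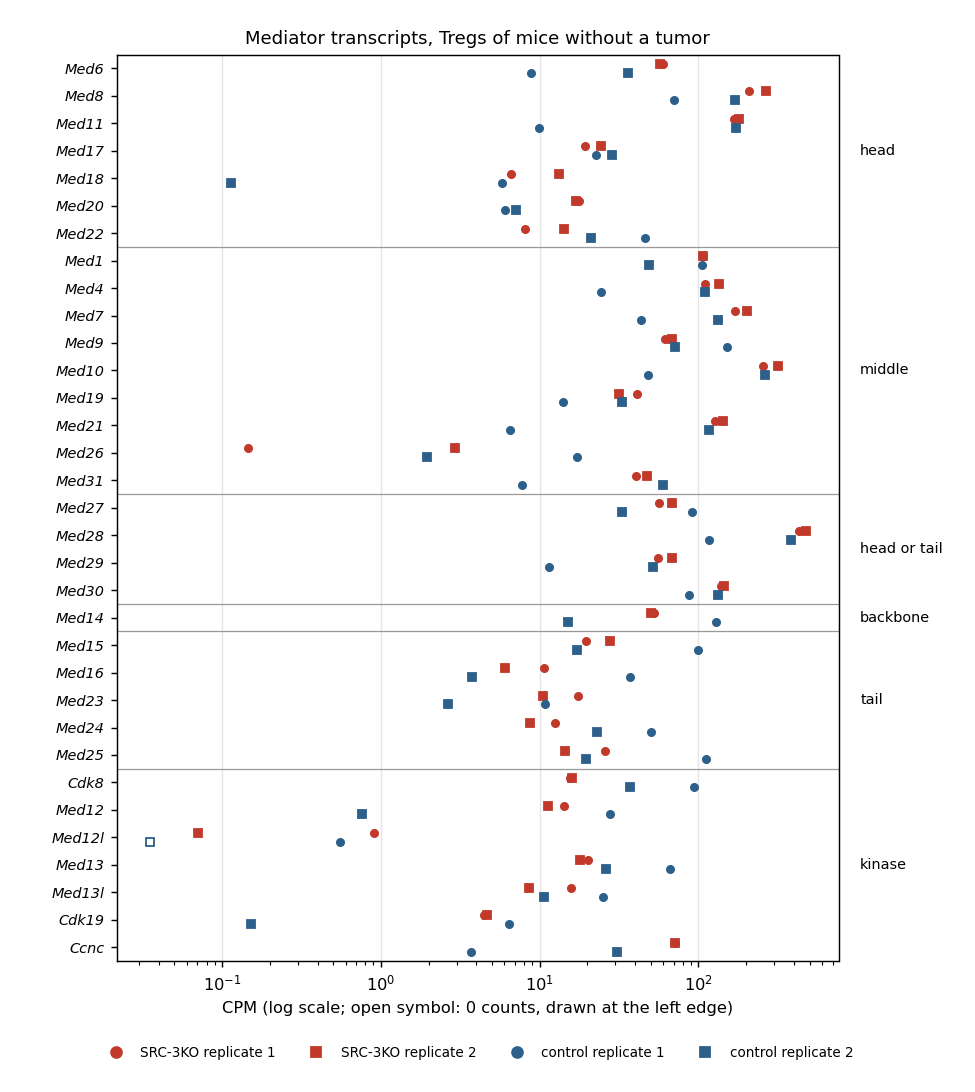
CPM (log axis) of the 33 protein-coding Mediator genes in the 4 libraries without a tumor, grouped by module; red marks SRC-3KO, blue marks control, and the symbol shape gives the replicate; the open symbol marks 0 counts. In the rows of Med21 and Med11 the blue circle, control replicate 1, lies far to the left of the rest, at 6.56 and 9.93 CPM.

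In the kinase module, Cdk8 stood at 15.6 and 16.0 CPM in SRC-3KO cells against 93.2 and 36.9 CPM in controls. Both controls were above both SRC-3KO libraries, and the log2 fold change was -2.04 (SE 0.83, unadjusted p = 0.0494, edgeR adjusted p = 0.910). Its partner Ccnc was the other way round, at 71.5 and 71.0 CPM in SRC-3KO cells against 3.69 and 30.9 CPM in controls (2.04, SE 1.12, edgeR adjusted p = 0.910). The SRC-3KO libraries were nearly equal for both genes, and the controls were far apart. Cdk19 stood at 4.46 and 4.64 CPM in SRC-3KO cells against 6.40 and 0.153 CPM in controls, the last from 4 reads, so the SRC-3KO libraries lay between the controls (0.48, SE 1.65, edgeR adjusted p = 0.946).

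Med12 had the same layout as Cdk19, at 14.3 and 11.3 CPM in SRC-3KO cells against 27.7 and 0.763 CPM in controls (-0.16, SE 1.47, edgeR adjusted p = 0.978). Its log2 fold change was 3.96 without control replicate 1, and limma-voom on all 4 libraries gave 1.47, so its direction without a tumor is not settled by these libraries. Med13 stood at 20.1 and 18.1 CPM in SRC-3KO cells against 66.6 and 26.1 CPM in controls, below both (-1.28, SE 0.82, edgeR adjusted p = 0.910). Med13l stood at 15.7 and 8.55 CPM in SRC-3KO cells against 25.0 and 10.6 CPM in controls, which overlap (-0.56, SE 0.88, edgeR adjusted p = 0.912). Med12l had 25 and 2 counts in SRC-3KO against 14 and 0 counts in controls, too few to order.

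The paralog ratios without a tumor were taken on counts. Cdk8 over Cdk19 was 1.80 and 1.78 on the log2 scale in SRC-3KO against 3.86 and 7.60 in controls. Both controls were above both SRC-3KO libraries (exact permutation p = 0.333, the smallest possible), as they were by a narrow margin in tumor-bearing mice. The highest ratio rests on the 4 Cdk19 reads of control replicate 2. Med13 over Med13l was 0.36 and 1.08 in SRC-3KO against 1.41 and 1.30 in controls, lower in SRC-3KO, where it was higher with a tumor (exact permutation p = 0.333). Med12 over Med12l overlapped.

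Among the core subunits, Med14 stood at 52.1 and 50.2 CPM in SRC-3KO cells against 129.5 and 15.1 CPM in controls, so the SRC-3KO libraries lay between the controls (-0.50, SE 1.09, edgeR adjusted p = 0.928). Med1 stood at 107.4 and 107.5 CPM in SRC-3KO cells against 104.9 and 48.7 CPM in controls, above both, though by under 3 CPM over the first (0.48, SE 0.79, edgeR adjusted p = 0.914). Med17 stood at 19.4 and 24.2 CPM in SRC-3KO cells against 22.6 and 28.7 CPM in controls and overlapped (-0.23, SE 0.73, edgeR adjusted p = 0.942).

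Med20 was higher in SRC-3KO without a tumor as well, at 17.8 and 16.8 CPM against 6.04 and 7.06 CPM in controls. Here both groups were tight and apart, control replicate 1 included (1.40, SE 0.81, edgeR adjusted p = 0.910). Med6 stood at 60.1 and 57.6 CPM in SRC-3KO cells against 8.86 and 35.9 CPM in controls (1.40, SE 0.92, edgeR adjusted p = 0.910). Med22 stood at 8.06 and 14.2 CPM in SRC-3KO cells against 46.3 and 21.2 CPM in controls, below both (-1.60, SE 0.85, edgeR adjusted p = 0.910). The head as a whole had 4 of 7 subunits above both controls and 1 below.

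In the tail, Med24 stood at 12.4 and 8.69 CPM in SRC-3KO cells against 50.5 and 22.9 CPM in controls, below both (-1.79, SE 0.83, edgeR adjusted p = 0.910). Med25 stood at 25.7 and 14.4 CPM in SRC-3KO cells against 112 and 19.7 CPM in controls and overlapped (-1.72, SE 1.04, edgeR adjusted p = 0.910). Med15 stood at 19.6 and 27.9 CPM in SRC-3KO cells against 99.2 and 17.2 CPM in controls, where control replicate 1 alone was high. In the middle module Med26 had 4 and 84 counts in SRC-3KO against 435 and 51 counts in controls, with no order between the groups (-2.63, SE 1.76, edgeR adjusted p = 0.910).

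Med21 showed how far control replicate 1 set these values, with 126 and 142 CPM in SRC-3KO cells against 6.56 and 117 CPM in controls, so that the second control was close to the SRC-3KO libraries and the first was far below all 3. The log2 fold change was 1.12 (SE 1.30, edgeR adjusted p = 0.910). Med30 stood at 139 and 145 CPM in SRC-3KO cells against 87.2 and 132 CPM in controls, and Med28 at 429 and 473 CPM against 117 and 385 CPM. All 3 were above both controls by a small margin over control replicate 2.

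The 2 states often pointed opposite ways. Over the 31 members tested in both, the fold changes correlated at Pearson r of -0.30 and Spearman rho of -0.33, and over all 11674 genes tested in both at -0.26 and -0.33, as a description across genes. Of the 31, 10 were apart in opposite directions, against 15.7% of all genes. Med4, Med6, Med8, Med21, Med28, Med29 and Med30 were above both controls without a tumor and below both with one. With control replicate 1 left out, their fold changes without a tumor ran from 0.001 for Med30 to 0.61 for Med6. Med13, Med22 and Med24 were below both controls without a tumor and above both with one. Apart in the same direction were 2 members, against 6.22% of all genes, namely Med1 and Med20, both higher in SRC-3KO. With the length and GC trend removed, Med30 was lower in both states, at -0.97 without a tumor and -0.30 with one. The difference between states was not tested, since the tables hold different units. The states also differ in how reads were quantified and in the names of the SRC-3KO and control samples. None of these can be told apart from the tumor.

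**Figure D4:**
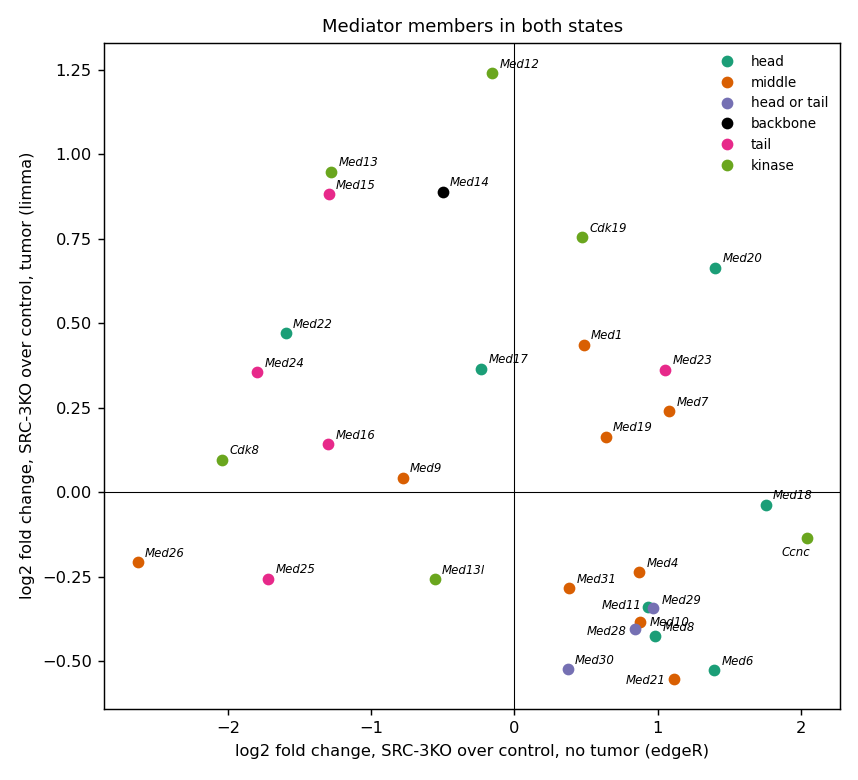
Log2 fold change of SRC-3KO over control for the 31 Mediator genes tested in both states, without a tumor (x axis, edgeR) and with a tumor (y axis, limma), each point a gene coloured by module. Most small subunits of head and middle fall in the lower right, while Med13, Med15, Med22 and Med24 fall in the upper left; Med1 and Med20 are among the few in the upper right.

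The subunits differ widely in size, and in tumor-bearing mice the fold changes followed transcript length. With a tumor, Spearman rho between the log2 fold change and the length of the longest transcript was 0.66 over 31 members and 0.38 over the 12845 genes with a length. By classes set after the values were seen, 8 of the 9 members under 2000 bases had a fold change below 0, with a median of -0.34, beside 3619 of 5113 and -0.23 for all genes of that size. Of the 8 members over 5000 bases, 7 lay above both controls and their median was 0.71, beside 1032 of 1921 and 0.33 for all genes of that size. The 14 members between had a median of 0.12, beside 0.06.

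Once a trend with length and GC content was removed from each library, rho over the members was 0.33 and the medians of the short and long classes were -0.24 and 0.45. Under that setting Med15 stood at 0.84 (limma adjusted p = 0.271), Med12 at 0.70 (limma adjusted p = 0.359), Med14 at 0.63 (limma adjusted p = 0.328), Med13 at 0.60 (limma adjusted p = 0.342) and Med21 at -0.40 (limma adjusted p = 0.328). The directions of these 5 held. Cdk19 was 0.52 in place of 0.75 and Med20 was 0.38 in place of 0.66. Of the 7 members at an unadjusted p under 0.05 before, Med12, Cdk19 and Med20 no longer were (limma unadjusted p = 0.055, 0.064 and 0.109). Among the 31 members Med12, Med13l and Med1 moved most. Med13l was -0.91 in place of -0.26, and Med1 was 0.04 in place of 0.44. The part of RNA quality or library preparation in the length trend was not tested.

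Without a tumor the length trend ran the other way over all genes, was uneven over the members and depended on the control used. With all 4 libraries the short, middle and long members had median log2 fold changes of 0.95, -0.76 and 0.48. All genes of those sizes had 0.43, -0.30 and -0.56, so the long members lay on the other side of 0. Spearman rho with GC content was -0.39 over members and -0.42 over all genes, farther from 0 than that with length. Spearman rho was -0.28 over 33 members and -0.24 over all genes with all 4 libraries, -0.44 over members without control replicate 2, and 0.22 without control replicate 1. Against control replicate 1 alone, the median log2 difference of the SRC-3KO mean was 2.03 for the 10 short members, -1.03 for the 14 of middle size and -0.41 for the 9 long ones. Against control replicate 2 alone, these medians were 0.22, 0.12 and 1.19. The controls themselves differed by a median of -1.58 in the short and 1.32 in the long members (control replicate 1 minus control replicate 2).

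**Figure D5:**
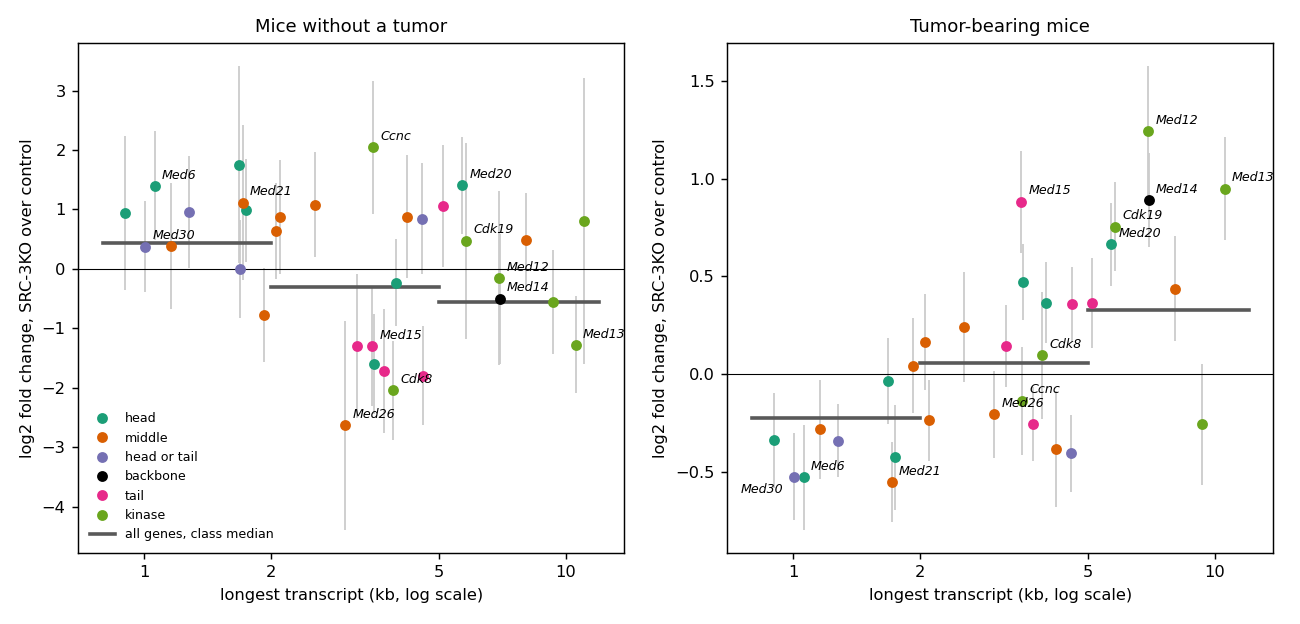
Log2 fold change of SRC-3KO over control against the length of the longest transcript (kb, log axis) for the Mediator genes, left without a tumor, right with a tumor; points are genes coloured by module, vertical lines are 1 SE, and grey bars are the medians of all tested genes in 3 length classes. With a tumor the points climb with length, with class medians of -0.34, 0.12 and 0.71; without a tumor they do not.

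Leaving out libraries changed the tumor values as well. Without control replicate 2, which carries most of the neutrophil and monocyte transcript, the members' median was -0.04, beside -0.05 for all genes. Without control replicate 1 it was 0.10, beside 0.05. Leaving out SRC-3KO replicate 1 and then replicate 2 gave -0.07 and 0.13. Each fit leaves a lone library in a group, assumed to vary like the other pair, so its calls are not read. Against control replicate 1 alone the log2 fold change of Med12 was 1.66, and against control replicate 2 alone it was 0.82.

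The levels of the subunits relative to each other were similar in both tables. Compared per length over the 33 protein-coding members, the mean levels of the 4 libraries correlated between the tables at Spearman rho of 0.73. With a tumor the 5 most abundant were Med10, Med8, Med11, Med21 and Med15. Med10, at 52.4 to 96.3 FPKM, exceeded Med8, at 33.2 to 59.9 FPKM, in each of the 4 libraries, and the order of the next 4 changed from library to library. Without a tumor the order on CPM per kb began with Med11, Med30, Med8, Med28 and Med21, and Med11 was first in 3 libraries. In control replicate 1 the first were Med30, at 86.6 CPM per kb, and Med9, at 78.5 CPM per kb, with Med11 at 11.0 and Med21 at 3.83 CPM per kb. Med12l was the last of the 33 in both tables.

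The machinery that Mediator acts on was followed in 4 lists. None of their genes passed the test in either state. At an unadjusted p under 0.05 with a tumor there were 1 polymerase subunit, 0 initiation factors, 6 elongation factors and 3 cohesin genes, all higher in SRC-3KO, against 16.5% of all genes. Without a tumor there was 1 elongation factor, which was lower, against 3.18% of all genes. With the length and GC trend removed, the tumor counts were 2 higher and 1 lower for elongation factors and 2 higher for cohesin. Of the 12 RNA polymerase II subunits, 1 had a fold change above 0 with a tumor, the largest subunit Polr2a, at 22.1 and 25.8 FPKM in SRC-3KO against 6.35 and 8.29 FPKM in controls (1.59, SE 0.22, limma adjusted p = 0.121). The list's median was -0.30. The small subunit Polr2g stood at 96.6 and 109 FPKM in SRC-3KO against 171 and 133 FPKM in controls (-0.55, limma adjusted p = 0.305). Without a tumor the median was 0.67. Polr2a stood there at 43.6 and 36.0 CPM in SRC-3KO cells against 270 and 40.1 CPM in controls. The groups overlapped, and control replicate 1 alone was high (-1.96, SE 1.08, edgeR adjusted p = 0.910).

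The 18 general initiation factors, which place the polymerase at the start, had a median of -0.05 with a tumor and 0.83 without one, where 16 of 18 were above 0. With the length and GC trend removed the median without a tumor was 0.43. With a tumor Gtf2a1 stood at 7.84 and 8.92 FPKM in SRC-3KO against 5.20 and 6.02 FPKM in controls, and its partner Gtf2a2 at 40.1 and 43.0 FPKM against 89.7 and 50.5 FPKM. The larger partner was above both controls and the smaller was below both. The 22 tested pausing and elongation factors had a median of 0.32 with a tumor, with 19 above 0, and -1.19 without one, with 4 above 0. With the trend removed the value without a tumor was -0.30, with 9 above 0. Supt6, which travels with the elongating polymerase, stood at 15.4 and 14.9 FPKM in SRC-3KO against 5.19 and 4.45 FPKM in controls with a tumor (1.47, SE 0.21, limma adjusted p = 0.121). Cdk13, a kinase of the polymerase tail, stood at 5.88 and 8.47 FPKM in SRC-3KO against 2.85 and 3.33 FPKM in controls. Without a tumor Ccnk, the cyclin of that kinase, stood at 4.46 and 6.22 CPM in SRC-3KO cells against 45.8 and 14.6 CPM in controls (-2.50, SE 0.94, edgeR adjusted p = 0.910).

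Cohesin holds enhancer and promoter loops to which Mediator binds, and its 10 genes, loader included, had a median of 0.39 with a tumor, with 9 above 0. Smc1a stood at 27.2 and 29.8 FPKM in SRC-3KO against 16.0 and 15.0 FPKM in controls (0.84, SE 0.18, limma adjusted p = 0.163), and Pds5a at 7.99 and 10.3 FPKM against 4.15 and 4.50 FPKM (0.92, SE 0.23, limma adjusted p = 0.193). Both were apart from the controls. The loader subunit Mau2 stood at 13.7 and 12.8 FPKM in SRC-3KO against 8.67 and 8.51 FPKM in controls. Without a tumor the list's median was 0.40, and Mau2 was lower in SRC-3KO, at 7.62 and 10.5 CPM against 34.0 and 15.7 CPM in controls (-1.45, SE 0.84, edgeR adjusted p = 0.910).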

How the data were processed

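RNA of sorted splenic Tregs was sequenced in 8 libraries. Per the labels and the submitters' processing notes, reads were handled with FastQC, Trim Galore, STAR, featureCounts and edgeR on mm10, with no versions given. The deposited counts table holds raw featureCounts counts of 4 libraries without a tumor, and StringTie FPKM values of the 4 tumor libraries were deposited in a table of their own, per the file headers.

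From these, edgeR 4.0.16 in R 4.3.3 (filterByExpr, TMM, quasi-likelihood test, common dispersion 0.791) was run on the counts, and limma 3.58.1 with an intensity trend (median total degrees of freedom 5.37) on log2(FPKM + 1). A gene entered the limma fit where 2 or more libraries held at least 1 FPKM. Benjamini-Hochberg adjustment covered all genes tested, at a threshold of 0.05. Alternatives used DESeq2 1.42.0, limma-voom, other scalings, filters and pseudocounts, and each library left out. The pipeline was tested on simulated data. Gene positions, transcript lengths and GC content came from GENCODE M21, to which 55141 of 55487 gene IDs matched.

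The members and lists were chosen with earlier results of these data known. Values in every library were given for the kinase module, Med1, Med14, Med17 and the members with the smallest unadjusted p in each state, and for up to 3 genes of each partner list. Module membership follows textbook assignments. One list of marker genes is not reported here.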

Additional observations from a re-analysis of the deposited data

Results flagged for a closer look

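In 10 Mediator genes both SRC-3KO libraries lay on one side of both controls without a tumor and on the other side with a tumor. This difference between states was not tested. Each pair below gives the log2 fold change of SRC-3KO over control without a tumor (edgeR) and then with a tumor (limma). Below the controls without a tumor and above them with one were Med13 (-1.28 and 0.95), Med22 (-1.60 and 0.47) and Med24 (-1.79 and 0.36). Above the controls without a tumor and below them with one were the short transcripts Med6 (1.40 and -0.53), Med8 (0.98 and -0.43), Med21 (1.12 and -0.55), Med29 (0.97 and -0.34) and Med30 (0.37 and -0.52), and also Med4 (0.87 and -0.24) and Med28 (0.85 and -0.41). Of all genes tested in both states, 15.7% were apart in opposite directions. With control replicate 1 left out, the values without a tumor were 0.09 for Med21, 0.001 for Med30, 0.05 for Med4, 0.12 for Med28 and 0.14 for Med29. They were 0.61 for Med6, 0.37 for Med8, -0.56 for Med13, -1.04 for Med22 and -1.21 for Med24. With the length and GC trend removed, 2 of the 10 lost the opposite signs, Med30 (-0.97 and -0.30) and Med24 (-0.74 and -0.022).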

How the results depend on the processing

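No Mediator gene was called in either state under any alternative that kept all 4 libraries. Without a tumor the members' median of 0.48 was 0.30 with median-of-ratios factors, 0.30 with DESeq2 and 1.02 with limma-voom, while the median of all genes was -0.15 with median-of-ratios factors and 0.24 with limma-voom, and the median ranged from 0.013 to 0.51 when a library was left out. Genes called without a tumor numbered 0 in the edgeR fit, 87 with DESeq2, 70 with no filter, and 0 to 7434 with a library left out, of which Mediator genes were 0 to 23. Genes called with a tumor numbered 14 in the limma fit, 7 with a pseudocount of 0.1, 1 with no filter, 72 with a replicate block, and 31 to 2510 with a library left out, of which Mediator genes were 0 to 8. The numbers P1 and P2 were not shown to pair samples (correlation of deviations 0.04), and the replicate block called 0 members. With a pseudocount of 0.1, Med13 over Med13l differed by 1.69 in place of 1.21 with a tumor. With the length and GC trend removed, medians were 0.13 for elongation factors and 0.18 for cohesin with a tumor and 0.20 for cohesin, -0.30 for elongation and 0.43 for initiation factors without one.

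Signs of single genes turned without a tumor in limma-voom for Med12 (1.47) and Med14 (0.21), and with the trend removed for Med12 (1.74), Med13l (0.44), Med16 (0.98), Med25 (0.019), Med27 (-0.64) and Med30 (-0.97). Med27, at 0.001, was also -0.16 with DESeq2 and with median-of-ratios factors and -0.05 with no filter. With a tumor Med16 (-0.19), Med18 (0.095) and Med24 (-0.022) turned with the trend removed. With a library left out, values without a tumor ranged from -1.85 to 6.76 for Med12l, -1.13 to 3.96 for Med12, -1.06 to 0.10 for Med13l, -1.36 to 1.66 for Med14, -2.09 to 0.36 for Med15 and -0.51 to 4.75 for Cdk19. With a tumor they ranged from -0.21 to 0.40 for Cdk8 and -0.37 to 0.10 for Ccnc. The cause was not tested. Depth behind the FPKM values is unknown, which limits what can be said of members near 1 FPKM.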
